A study of Arabidopsis thaliana with 4 samples.

Results

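The genes described here were grouped under the plant's low-energy response: AKINBETA1 (AT5G21170), BZIP53 (AT3G62420), bZIP44 (AT1G75390), AT3G15450, AT1G23390, IVD (AT3G45300) and MCCA (AT1G03090). AKINBETA1, AT3G15450, IVD and MCCA were also listed as induced by sugar starvation or darkness. AT1G23390 was listed only as a kelch F-box gene, and BZIP53 and bZIP44 only as bZIP factors. The 7 genes were chosen with earlier results of these data known, so counts among them describe the genes and are no test. They were found by name through the array's annotation. Each was measured by 1 probe set, so 7 of 7 genes were measured among 13286 named loci. They were compared between css1 seedlings and wild-type (WT) seedlings of Arabidopsis thaliana, with 2 independent RNA samples of each genotype on 4 Affymetrix arrays. The WT was the Columbia accession, and both genotypes were whole seedlings taken at 9 days of age. All plates held B5 medium with 0.8% agar and 2% sucrose, and were kept in continuous light of 80 µmol photons per square metre per second. The sugar was thus supplied to both genotypes. The labels do not say which gene is altered in css1. As background, css1 is known from other work as a mutant with a defect in a nuclear gene for a splicing factor of mitochondrial introns, and that gene's transcript is not analysed here. Signals are log2 values from RMA, which corrects background, equalises the arrays and summarises the probes of each set.

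SnRK1 is a protein kinase related to the SNF1 kinase of yeast and the AMP-activated kinase of animals. It is active when sugar or energy is short and is restrained when sugar is plentiful, and its activity raises the transcripts of genes that break down amino acids and other reserves. The S1 class of basic leucine zipper (bZIP) factors, to which BZIP53 and bZIP44 belong, acts in the same response, and translation of their messages is repressed by sucrose. Transcripts that accumulate in darkness or starvation and fall when sugar is fed are called sugar-repressed.

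All 7 genes had a lower mean signal in css1, as did 55.1% of all probe sets, and 4 of the genes fell: AT3G15450, AKINBETA1, AT1G23390 and IVD. A gene was taken to have fallen when its p from limma, adjusted by the Benjamini-Hochberg method over the 22746 probe sets tested, was under 0.05. By this rule 8.01% of those probe sets were lower in css1 and 7.63% were higher. The log2 differences, css1 minus WT, ran from -1.79 for AT3G15450 to -0.09 for bZIP44, with a median of -0.38 for the 7 genes and -0.03 for all probe sets. The remaining 3 genes, BZIP53, bZIP44 and MCCA, did not pass. Both css1 values lay below both WT values for 6 of the 7 genes, and the same held for 33.4% of all probe sets.

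**Figure D1:**
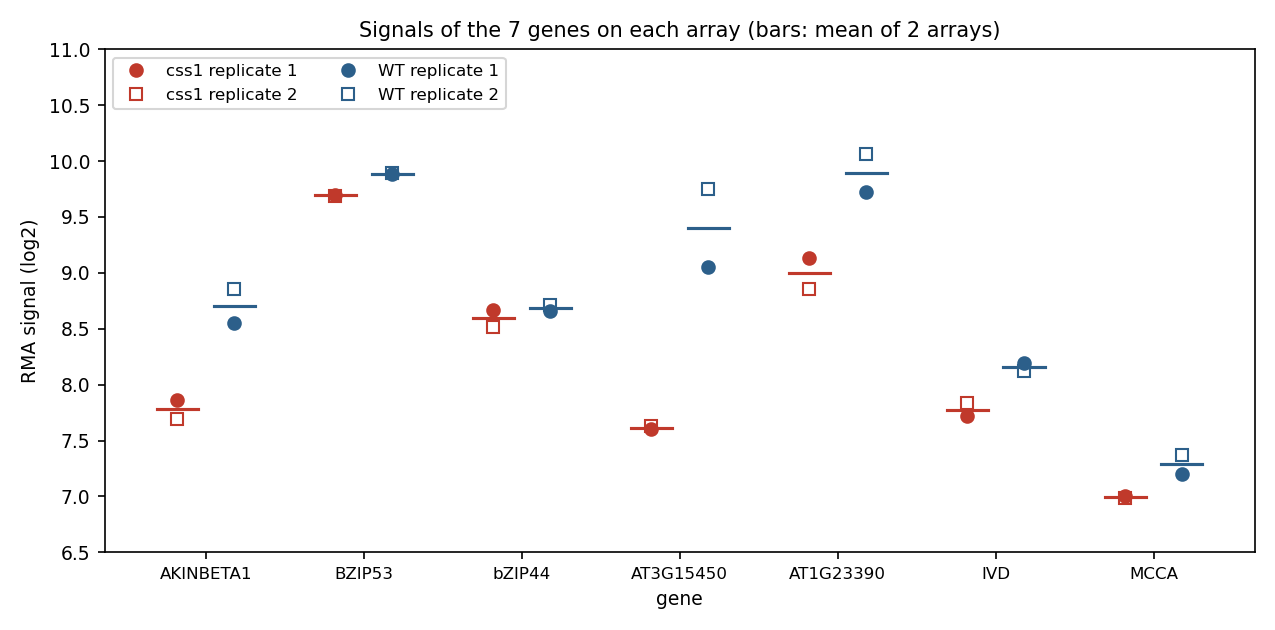
RMA signal on the log2 scale (vertical axis) of each of the 7 genes (horizontal axis) on the 2 css1 arrays (red, left of each pair) and the 2 WT arrays (blue, right), with bars at the means of 2 arrays. The groups are apart for every gene but bZIP44, and the gap is widest for AT3G15450. Heights of different genes are signals of different probes and are not compared.

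Among the genes of the kinase itself, AKINBETA1 encodes a beta subunit of SnRK1, a scaffold that joins the catalytic subunit to the gamma-type subunit. Its log2 signal was 7.86 and 7.70 in css1, against 8.55 and 8.85 in WT. The groups did not overlap, and the gap between the nearest values of the genotypes was 0.69 log2 units. The mean was 7.78 ± 0.12 in css1 and 8.70 ± 0.21 in WT (SD, n = 2 each), a 1.90-fold fall (log2 difference -0.92, SE 0.13, 95% interval -1.24 to -0.60, limma adjusted p = 0.0114). Of the 22746 probe sets, 293 had a lower difference than this one.

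The other measured SnRK1 transcripts did not pass the test. The SnRK1 list held the subunits and their 2 upstream kinases, 9 genes in all, of which 3 were measured, and these were the 3 beta-type subunit genes. Of the 3, 1 fell, 0 rose and 2 did not pass. AT4G16360, listed as KINbeta2, had 8.28 and 8.34 in css1, against 8.12 and 8.08 in WT (log2 difference 0.21, 95% interval 0.00 to 0.42, limma adjusted p = 0.157). Its css1 values were both the higher ones. AT2G28060, listed as KINbeta3, a short beta-type subunit, had 8.10 and 7.99 in css1, against 8.22 and 8.08 in WT, with overlapping groups (log2 difference -0.10, 95% interval -0.34 to 0.14, limma adjusted p = 0.535). The intervals of both lie above that of AKINBETA1, although the difference between subunits was not tested. The catalytic subunit genes KIN10 and KIN11 and the gamma-type subunit genes are not analysed here.

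RAPTOR1, for a partner of the TOR kinase, which promotes growth when sugar is available and is opposed by SnRK1, was the measured gene of the TOR list (1 of 5). Its signal was 6.29 and 6.26 in css1, against 6.55 and 6.81 in WT. Both css1 values were the lower ones, but the difference did not pass (-0.41, SE 0.11, limma adjusted p = 0.0625). It passed with probe sets of low signal filtered out (limma adjusted p = 0.0498). It did not pass with the other settings on all 4 arrays (adjusted p from 0.0584 to 0.115). Its difference was -0.54 without WT replicate 1 and -0.28 without WT replicate 2.

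The S1-class bZIP transcripts differed little between the genotypes. BZIP53, which pairs with group C factors and acts on genes of amino acid breakdown such as that for proline dehydrogenase, gave 9.70 and 9.69 in css1, against 9.88 and 9.89 in WT. Its replicates were close to each other, with SDs of 0.0045 in css1 and 0.0098 in WT, and the groups did not overlap. The difference of -0.19 did not pass (95% interval -0.40 to 0.01, limma adjusted p = 0.174), and limma's pooled spread sets its SE at 0.08, well above these SDs. A median probe set had an SD of 0.067 in css1 and 0.086 in WT.

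bZIP44, a close relative in the same class, gave 8.67 and 8.52 in css1, against 8.66 and 8.71 in WT. It was the 1 gene of the 7 whose groups overlapped, since css1 replicate 1 lay 0.01 above the lower WT value. Its difference was -0.09 (95% interval -0.32 to 0.14, limma adjusted p = 0.577), so a fall beyond 0.32 log2 units lies outside the interval. The 2 genes were the measured ones of the 9 in the list of S1 and group C factors. Transcript arrays do not measure the sucrose-controlled translation of these factors.

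**Figure D2:**
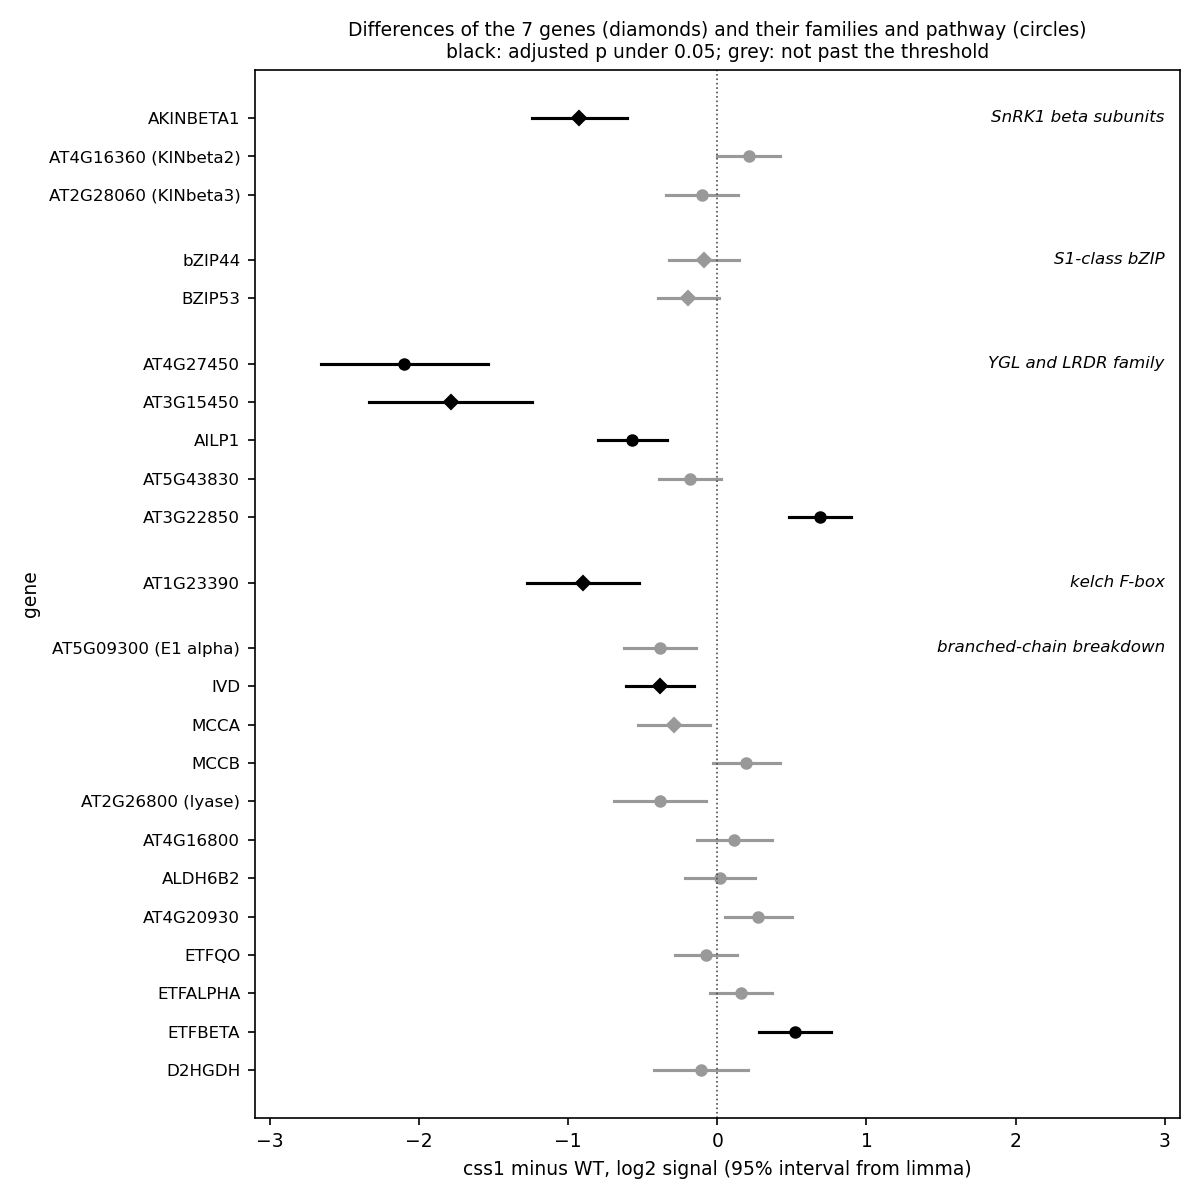
Difference in log2 signal, css1 minus WT (horizontal axis), with 95% intervals from limma, for the 7 genes (diamonds) and the other measured genes of their families and pathway (circles), grouped by role down the vertical axis. Black marks genes with an adjusted p under 0.05. The YGL family holds the lowest value, -2.10, and also a gene that rose, AT3G22850 at 0.69.

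The largest fall of the set was that of AT3G15450, a sugar-repressed gene whose protein carries the YGL and LRDR motifs of a family first named for induction by aluminium. Its signal was 7.60 and 7.63 in css1, against 9.05 and 9.75 in WT. The css1 replicates were nearly equal, whereas the WT replicates were 0.70 log2 units apart, and even the lower WT value exceeded both css1 values by 1.43. The means were 7.62 ± 0.02 in css1 and 9.40 ± 0.49 in WT (SD, n = 2 each), which is a 3.45-fold fall (log2 difference -1.79, SE 0.22, 95% interval -2.33 to -1.24, limma adjusted p = 0.00818). Only 23 of the 22746 probe sets had a lower difference.

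All 5 genes of the YGL and LRDR family were measured, and 3 fell, 1 rose and 1 did not pass. The 3 include AT3G15450, which was chosen with results known. Over all probe sets, 8.01% were lower in css1 and 7.63% were higher. Besides AT3G15450, AT4G27450 fell. Its signal was 9.43 and 9.55 in css1, against 11.23 and 11.94 in WT, and the WT replicates again lay far apart, with replicate 2 the higher (log2 difference -2.10, SE 0.23, limma adjusted p = 0.00581). AT4G27450 is also known as a gene induced by low oxygen. AILP1 (AT5G19140) fell as well. It had 11.55 and 11.44 in css1, against 12.01 and 12.12 in WT (log2 difference -0.57, 95% interval -0.80 to -0.34, limma adjusted p = 0.0167).

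AT3G22850 of the same family rose, with 9.76 and 9.74 in css1, against 9.09 and 9.04 in WT (log2 difference 0.69, 95% interval 0.48 to 0.90, limma adjusted p = 0.00801). AT5G43830 had 10.75 and 10.76 in css1, against 10.96 and 10.91 in WT, and did not pass (log2 difference -0.18, 95% interval -0.39 to 0.03, limma adjusted p = 0.206). The family thus held differences of both signs, each with groups that did not overlap. Its median difference was -0.57. The fall of AILP1 did not pass without css1 replicate 1 (limma adjusted p = 0.0822), without css1 replicate 2 (0.128) or without WT replicate 2 (0.0519), and the rise of AT3G22850 did not pass without css1 replicate 1 (0.0666) or 2 (0.0722). AT4G27450 passed without each array in turn.

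AT1G23390 encodes a kelch-repeat F-box protein, a part of a ubiquitin ligase that has been described as targeting chalcone synthase, the entry enzyme of flavonoid synthesis, for breakdown. Its signal was 9.13 and 8.86 in css1, against 9.72 and 10.06 in WT. The groups were 0.59 log2 units apart at their nearest values. The mean was 8.99 ± 0.20 in css1 and 9.89 ± 0.24 in WT (SD, n = 2 each), a 1.86-fold fall (log2 difference -0.90, SE 0.15, 95% interval -1.27 to -0.52, limma adjusted p = 0.0177). The other 9 genes of its list, the related F-box genes, the genes for phenylalanine ammonia-lyase and that for chalcone synthase, are not analysed here.

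IVD encodes isovaleryl-CoA dehydrogenase, a mitochondrial enzyme of leucine breakdown that passes electrons to the electron transfer flavoprotein and so to the respiratory chain. Its signal was 7.72 and 7.83 in css1, against 8.20 and 8.12 in WT. The groups were apart by 0.29 log2 units. IVD fell 1.30-fold (log2 difference -0.38, SE 0.09, 95% interval -0.61 to -0.16, limma adjusted p = 0.0443), and its adjusted p was the nearest to the threshold among the 4 genes that fell.

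MCCA encodes the biotin-bearing subunit of methylcrotonyl-CoA carboxylase, the next enzyme of leucine breakdown. Its signal was 7.004 and 6.990 in css1, against 7.201 and 7.374 in WT. Both css1 values were the lower ones, and the difference of -0.29 did not pass (SE 0.10, 95% interval -0.53 to -0.05, limma adjusted p = 0.101). MCCB (AT4G34030), for the partner subunit of the same enzyme, had 8.20 and 8.26 in css1, against 7.98 and 8.09 in WT, also without passing (log2 difference 0.20, 95% interval -0.03 to 0.42, limma adjusted p = 0.209). The 2 subunit genes thus had differences of opposite sign, and the contrast between them was not tested.

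Over the whole breakdown pathway, 12 of 18 listed genes were measured, of which 1 fell (IVD), 1 rose and 10 did not pass. These counts are near the shares over all probe sets, 8.01% lower and 7.63% higher in css1. The median difference was -0.03, as it was over all probe sets, and 6 of the 12 differences were below 0. The gene that rose was ETFBETA (AT5G43430), for a subunit of the electron transfer flavoprotein. It had 8.58 and 8.76 in css1, against 8.17 and 8.13 in WT (log2 difference 0.52, SE 0.10, limma adjusted p = 0.0231). This call was lost without each array in turn, with adjusted p from 0.0517 to 0.156.

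At the head of the pathway, AT5G09300, for an alpha subunit of the branched-chain ketoacid dehydrogenase, had 6.55 in both css1 samples, against 7.02 and 6.84 in WT (log2 difference -0.38, limma adjusted p = 0.0522). At its end, AT2G26800, for the lyase that cleaves hydroxymethylglutaryl-CoA, had 8.40 and 8.26 in css1, against 8.57 and 8.86 in WT (log2 difference -0.38, limma adjusted p = 0.0980). Neither passed, although the css1 values of both lay below the WT values. AT2G26800, also called HML1, did not pass with any setting on all 4 arrays. Its difference was -0.53 without WT replicate 1 and -0.24 without WT replicate 2. AT4G20930, for hydroxyisobutyrate dehydrogenase of valine breakdown, went the other way, with 7.29 and 7.41 in css1, against 7.06 and 7.09 in WT (log2 difference 0.27, limma adjusted p = 0.0987). Differences of the other 5 genes, ETFALPHA, ETFQO, ALDH6B2, AT4G16800 and D2HGDH, lay between -0.11 and 0.16. The transaminase genes of the first step and the dark-inducible genes DIN3 and DIN4 are not analysed here.

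Of the 29 genes listed as induced by sugar starvation or darkness, 5 were measured. AKINBETA1, AT3G15450 and IVD among them fell, as given above, and MCCA and ATL8 did not pass. All but ATL8 belong to the genes chosen with results known, so these counts are no test. Over all probe sets, 8.01% were lower in css1. ATL8, for a RING-type ubiquitin ligase, had 5.47 and 5.37 in css1, against 5.61 and 5.33 in WT, with overlapping groups (log2 difference -0.05, limma adjusted p = 0.823). In the list of 8 sugar-induced genes, APL3 was measured, which encodes a large subunit of ADP-glucose pyrophosphorylase of starch synthesis. APL3 rose, with 8.79 and 8.62 in css1, against 6.11 and 5.98 in WT (log2 difference 2.66, limma adjusted p = 6.20e-04). Its direction was opposite to that of the sugar-repressed genes that fell, while MCCA and ATL8 did not pass. APL3 was the 1 gene measured of its list, and a link between its rise and those falls was not tested.

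**Figure D3:**
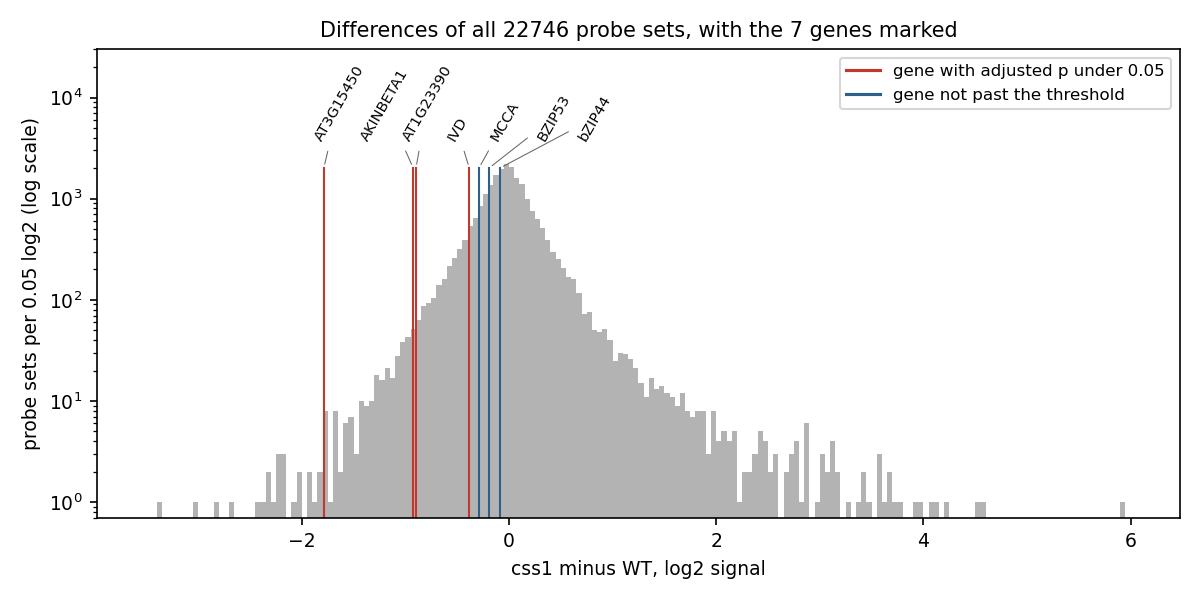
Number of probe sets (vertical axis, log scale) by difference in log2 signal, css1 minus WT (horizontal axis, bins of 0.05), for all 22746 probe sets, with vertical lines at the 7 genes. AT3G15450 stands in the lower tail, AKINBETA1 and AT1G23390 lie close together near -0.9, and the lines of BZIP53 and bZIP44 fall in the bulk of the distribution.

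WT replicate 2 was above WT replicate 1 for 6 of the 7 genes, IVD being the exception, as it was for 45.1% of all probe sets. The gap between the WT replicates was as small as 0.01 log2 units for BZIP53, and the css1 replicates differed in both directions, by -0.28 (replicate 2 minus replicate 1) for AT1G23390 and 0.12 for IVD. The loci whose centred values over the 4 arrays were nearest to those of AT3G15450 were AT4G39675 (Euclidean distance 0.25 log2 units), AT1G33055 (0.29) and its family member AT4G27450 (0.32). In each of these 3 loci WT replicate 2 was the highest array, as in AT3G15450, which follows from choosing them by their nearness to it. The loci nearest to AKINBETA1 were AT4G17245 (distance 0.06), SP1L4 (AT5G15600, 0.07) and AT1G23390 (0.09), whose pattern over the 4 arrays was thus close to that of AKINBETA1. These distances describe 4 arrays only.

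**Figure D4:**
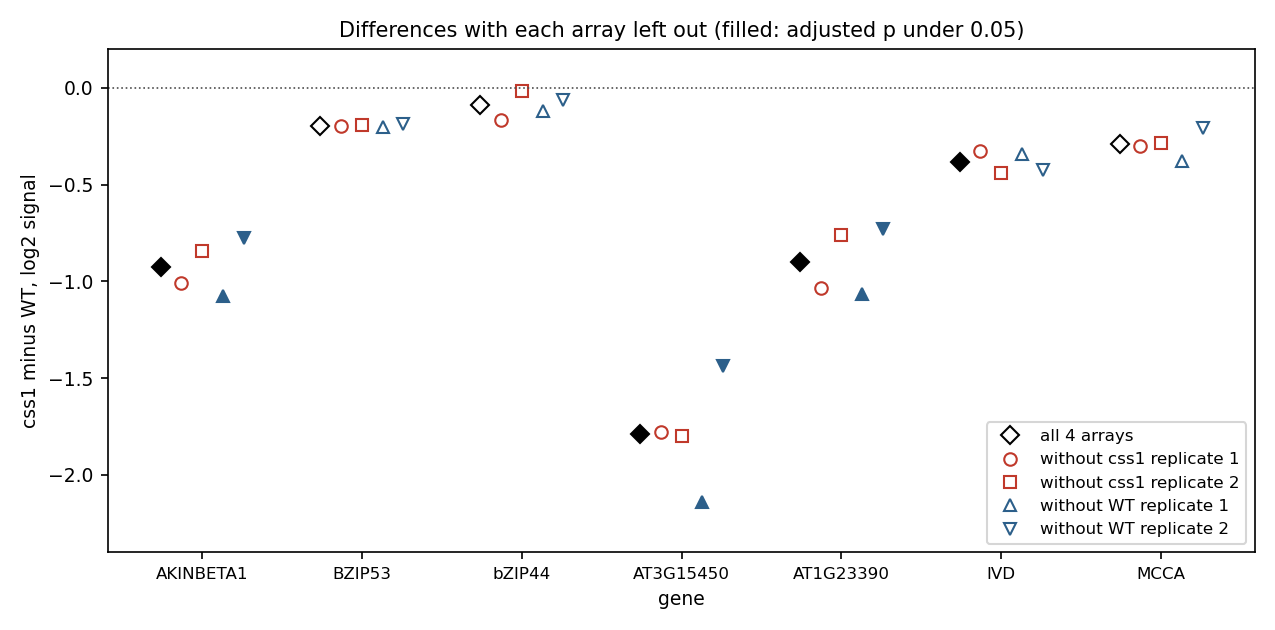
Difference in log2 signal, css1 minus WT (vertical axis), of each of the 7 genes (horizontal axis) with all 4 arrays (diamonds) and with each array left out in turn. Filled symbols have an adjusted p under 0.05. Every difference is below 0, and without either css1 array no gene passes.

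Without css1 replicate 1 or css1 replicate 2, none of the 7 genes passed limma's threshold. The differences of the 4 genes that fell with all arrays moved by at most 0.14 log2 units. Without css1 replicate 1 the difference was -1.78 for AT3G15450 (adjusted p = 0.0576), -1.01 for AKINBETA1 (adjusted p = 0.0576) and -1.04 for AT1G23390 (adjusted p = 0.0605). Without css1 replicate 2 it was -1.80 for AT3G15450 (adjusted p = 0.0639), -0.84 for AKINBETA1 (adjusted p = 0.0891) and -0.76 for AT1G23390 (adjusted p = 0.114). IVD did not pass without any 1 of the 4 arrays, with adjusted p from 0.0792 to 0.230. The number of probe sets called over the whole array fell alike, to 659 without css1 replicate 1 and 560 without css1 replicate 2, against 3559 with all arrays.

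Whole seedlings hold roots and green tissue, and a lower signal from fewer cells of a type cannot be told apart from less RNA per cell. Of 4 root markers, 3 were measured, with a mean log2 signal of 8.73 and 8.63 in css1, against 8.90 and 8.69 in WT. PYK10, a beta-glucosidase of root ER bodies, rose (log2 difference 0.50, limma adjusted p = 0.0199), while the root hair expansin genes EXPA7 (-0.33, limma adjusted p = 0.123) and EXPA18 (-0.51, limma adjusted p = 0.0858) did not pass. The 4 green shoot markers are not analysed here, and 7 nuclear photosynthesis genes found by symbol after the values were seen stood in for them. Their mean log2 signal was 12.30 and 12.28 in css1, against 12.21 and 12.60 in WT. WT replicate 2 exceeded WT replicate 1 for 6 of these 7 genes, for 0 of the 3 root markers and for 45.1% of all probe sets. Of these photosynthesis genes LHCB4.3 fell (-0.60, limma adjusted p = 0.0165) and the other 6 did not pass. The calls of PYK10 and LHCB4.3 were lost without either css1 array, and that of PYK10 also without WT replicate 2 (adjusted p = 0.0574). The difference of LHCB4.2 turned with the WT arrays, from -0.72 without WT replicate 1 (adjusted p = 0.0210) to 0.48 without WT replicate 2 (adjusted p = 0.0571). The part of tissue composition in the falls of AT3G15450, AKINBETA1, AT1G23390 and IVD was not tested. Without WT replicate 2 the differences were -1.44 for AT3G15450, -0.77 for AKINBETA1 and -0.73 for AT1G23390, which passed, and -0.42 for IVD, which did not (adjusted p = 0.0792).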

How the data were processed

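Transcripts of 4 seedling samples were measured on 1-colour Affymetrix arrays from 250 ng of total RNA each. The values deposited by the authors are log2 signals made with RMA, per the submitters' processing notes. Its version is not stated, and no source used here gives detection calls. Array medians lay between 6.32 and 6.37. With no counts behind the values, precision is limited by the number of arrays.

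The 64 control probe sets were set aside, and 22746 were tested in R 4.3.3 by limma 3.58.1, using lmFit with a genotype term alone, eBayes and a two-sided p adjusted by Benjamini-Hochberg over all of them, with a threshold of 0.05. On data simulated with the spread of limma's own fit, the median estimate was checked against differences of known size. That check does not show how reliable calls from 2 arrays per genotype are. The annotation names 1 gene for 13513 probe sets and several for 503, and names none for the rest. Gene IDs matched 13436 probe sets to a locus in the RefSeq table of assembly TAIR10.1. All 7 members have plain probe set names without the suffix for shared probes, but probe sequences were not examined. Of 86 genes in 8 pathway lists, 26 were measured, each by 1 probe set.

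Members and lists were chosen with earlier results of these data known. The text names all members, every measured gene of lists with up to 8 measured, the 6 with the smallest p of the longer list, and the 3 nearest loci of AT3G15450 and AKINBETA1. Other genes of the longer list were named after their values were seen. The planned search of promoters for motifs was not made, since no promoter sequence was at hand. Alternatives were the removal of probe sets below the 30th percentile of mean signal, eBayes with trend or robust, median centring, a second quantile normalization, the replicate number as a block, and leaving out each array, where a lone array is assumed to vary like the other genotype.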

Additional observations from a re-analysis of the deposited data

How the results depend on the processing

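The sign of all 7 differences was the same under the 10 alternatives. With the replicate number as a block, the differences stayed as they were (-0.92 for AKINBETA1, -0.38 for IVD, -0.90 for AT1G23390), but their adjusted p were 0.0567, 0.0986 and 0.0749, so 1 of the 7 genes passed, AT3G15450 (adjusted p = 0.0402). The block left 1264 probe sets called over the array, and 0 fallen and 0 risen genes of branched-chain breakdown. Same-numbered samples did not deviate together (correlation -0.00605 over probe sets), so the number is not taken to pair them. With each array centred on its median, IVD was at -0.34 (adjusted p = 0.0589), which left 0 fallen genes of branched-chain breakdown. The filter and robust eBayes each gave 2 fallen genes there, as AT5G09300 also passed. Leaving out each array, differences ranged from -1.07 to -0.77 for AKINBETA1, -2.14 to -1.44 for AT3G15450, -0.44 to -0.33 for IVD and -1.07 to -0.73 for AT1G23390. Calls ranged from 0 to 3 among the 7 genes and from 560 to 3079 probe sets over the array. They ranged from 1 to 3 fallen and 0 to 1 risen in the YGL family, and from 0 to 1 fallen and 0 to 0 risen in branched-chain breakdown. The cause of the lost calls was not tested. None of the 7 genes or the genes of the lists had several probe sets, so that alternative gave no value.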

Other observations

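Other bZIP factors were also measured on these arrays. Found by name after the values were seen, 20 further loci carried a bZIP number in their symbol or synonyms, and 17 of their differences were below 0, against 55.1% of all probe sets. The median of the 20 differences was -0.15. Of the 20, 4 fell, 0 rose and 16 did not pass, against 8.01% lower and 7.63% higher over all probe sets. The 4 were bZIP58 (-0.67, limma adjusted p = 0.0133), BZIP34 (-0.67, limma adjusted p = 0.0205), FD (-0.55, limma adjusted p = 0.0159), the partner of the flowering signal FT, and bZIP42 (-0.42, limma adjusted p = 0.0454). Their css1 signals were low, with means of 3.99 for bZIP58, 4.19 for BZIP34, 3.91 for FD and 3.39 for bZIP42, against 4.66, 4.87, 4.46 and 3.81 in WT. The filter on low signal removed all 4 from the test. Each of the 4 calls was lost when either css1 array was left out and with the replicate block (adjusted p from 0.0530 for FD to 0.0754 for bZIP42). That of bZIP42 was also lost with median centring (adjusted p = 0.0551) and without WT replicate 1 (0.112) or 2 (0.0878). BZIP60, a factor of the unfolded protein response, was at 0.25 (limma adjusted p = 0.101).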
